A study of Drosophila melanogaster with 4 samples.

Results

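The regions described here are the 1687 clusters of CP190 enrichment that the authors' combined list places along chromosome arm 3R, the right arm of the third chromosome of Drosophila melanogaster. They were chosen by position alone, as all clusters of the arm with a midpoint more than 2 Mb from its centromeric end and outside the Antennapedia and bithorax complexes, the homeotic gene clusters of this arm. The combined list holds 7960 clusters in all, of which 1870 lie on 3R. The rule left out 129 of these next to the centromere and 54 in the homeotic complexes, and the members make up 21.2% of the whole list. The left-out homeotic stretches are 350 kb and 335 kb long, and 25.2 Mb of the 27.9 Mb arm remained. All coordinates are 1-based and on FlyBase release 5, and all regions named are on 3R.

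CP190 was mapped by ChIP-seq, in which chromatin fragments held by an antibody are sequenced, in formaldehyde-fixed whole embryos of the wild-type strain Oregon-R-modENCODE. All 4 samples are of this genotype and are labelled 14 to 16 h of development, no treatment is labelled, and there are 2 CP190 ChIP samples (antibody CP190-HB) and 2 of input chromatin. By their labels, input 1 was used for ChIP replicate 2 and input 2 for ChIP replicate 1, and the labels do not say whether the replicates came from separate embryo collections. Whole embryos mix all tissues, so a cluster may come from many cells or from few.

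CP190 is a protein with zinc fingers and a BTB domain that was first described at the centrosome of dividing cells. In interphase it sits on chromatin at insulators, the elements that can separate an enhancer from a promoter and that often mark the borders between chromatin domains. It is brought there by proteins that recognise DNA sequence, among them Su(Hw) and the fly CTCF. CP190 is also found at many promoters of active genes.

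Each cluster carries 1 score from the authors, treated here as the log2 of an enrichment ratio because of the form of its values. The terms of that ratio and the scaling between lists are not stated, so scores rank clusters within a list. Where scores of different lists are compared below, the differences are between deposited values and cannot be read as differences in enrichment. One list was deposited for each ChIP replicate beside the combined list. No read counts were used, so the depth behind each cluster is unknown. With 1 condition and 2 ChIP lists there is no contrast between groups of samples, and no test was made. The genes at the clusters and their DNA sequence were not analysed here, since the reference at hand is not on release 5.

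The strongest cluster of the arm that both ChIP lists held lay at 12085136 to 12087887. Its log2 score was 2.81 in the combined list, 2.66 in ChIP replicate 1 and 2.98 in ChIP replicate 2, and it ranked 6 among all clusters of each ChIP list. Both replicates drew nearly the same outline, as 99.4% of its 2752 bp was covered by each. The combined score of this cluster stood 0.48 above that of the next one, while the other steps in rank among the 12 strongest were at most 0.09.

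The next at 22706032 to 22708493 had a combined score of 2.32, with 2.32 in ChIP replicate 1 and 2.36 in ChIP replicate 2. A cluster at 24459338 to 24462683 had 2.29 combined, 2.19 in replicate 1 and 2.47 in replicate 2. One at 25958984 to 25961494 had 2.27 combined, with replicate scores of 2.26 and 2.29. All 3 lie within the distal section, the last of the 3 equal sections into which the stretch was cut, which ends at the telomere.

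At 22013448 to 22015833 the combined log2 score was 2.19, with 2.08 in ChIP replicate 1 and 2.34 in ChIP replicate 2. The cluster at 27282673 to 27285255 had 2.14, 2.11 and 2.19 in the same order. The cluster at 21018537 to 21020980 had 2.09, with the replicates at 2.11 and 2.11. These also lie in the distal section, which held 7 of the 12 strongest clusters found in both ChIP lists. It held 255 of all 791 clusters found in both lists, and the difference in share was not tested. Of its members 9.34% scored above 1, beside 9.98% in the proximal and 9.12% in the middle section.

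The remaining 5 of the 12 were spread more widely. Those in the proximal section lay at 5925250 to 5927618 (combined log2 score 2.00), at 3633117 to 3637287 (1.99) and at 7437896 to 7440322 (1.85). In the middle section, the cluster at 12030059 to 12032568 (1.96) lay near the strongest of all, and a last distal one lay at 27044025 to 27048050 (1.90). The cluster at 5925250 was the single case among the 12 in which ChIP replicate 1 scored above replicate 2, with 2.04 against 2.01. The largest difference was that of the cluster at 12030059, with 1.76 in replicate 1 and 2.18 in replicate 2. For 9 of the 12 the combined score lay between the replicate scores. Lengths ran from 2369 to 4171 bp.

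**Figure D1:**
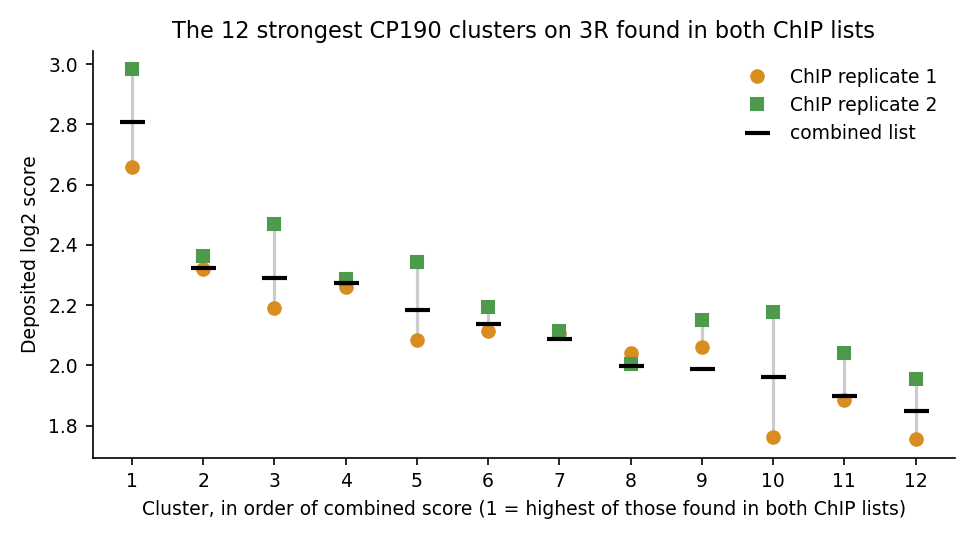
Deposited log2 scores of the 12 strongest 3R clusters found in both ChIP lists, in order of combined score, with ChIP replicate 1 as circles, ChIP replicate 2 as squares and the combined list as dashes. Replicate 2 lies above replicate 1 for 11 of the 12, and the first cluster stands apart at 2.81.

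Replicate support was set by an overlap of at least 1 bp with each ChIP list. Of the 1687 members, 791 (46.9%, exact 95% interval 44.5 to 49.3%) overlapped a cluster of both ChIP lists, beside 46.5% over the whole combined list. A further 121 (7.17%) overlapped replicate 1 alone and 257 (15.2%) replicate 2 alone, beside 7.22% and 13.6% in the whole list. The other 518 (30.7%, 28.5 to 33.0%) overlapped neither, beside 32.6%. For all 4 classes the whole list's share lies inside the counting interval of the arm's share, which for replicate 2 alone runs from 13.6 to 17.0%. Intervals are exact (Clopper-Pearson) and cover counting error over clusters only.

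Clusters found in both ChIP lists had higher median scores and lengths than the others. Their median combined log2 score was 0.61 (quartiles 0.44 and 0.90), against 0.32 for those in replicate 1 alone, 0.32 for those in replicate 2 alone and 0.35 for those in neither. The highest score was 0.54 among the clusters of replicate 1 alone and 0.61 among those of replicate 2 alone. Neither group thus exceeded the median of the clusters found in both. Median lengths were 2266 bp in both lists, 1812 bp in replicate 1 alone, 1913 bp in replicate 2 alone and 1267 bp in neither. Overlap with the ChIP lists is not independent of score or length, since all 3 lists belong to the same set of samples.

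**Figure D2:**
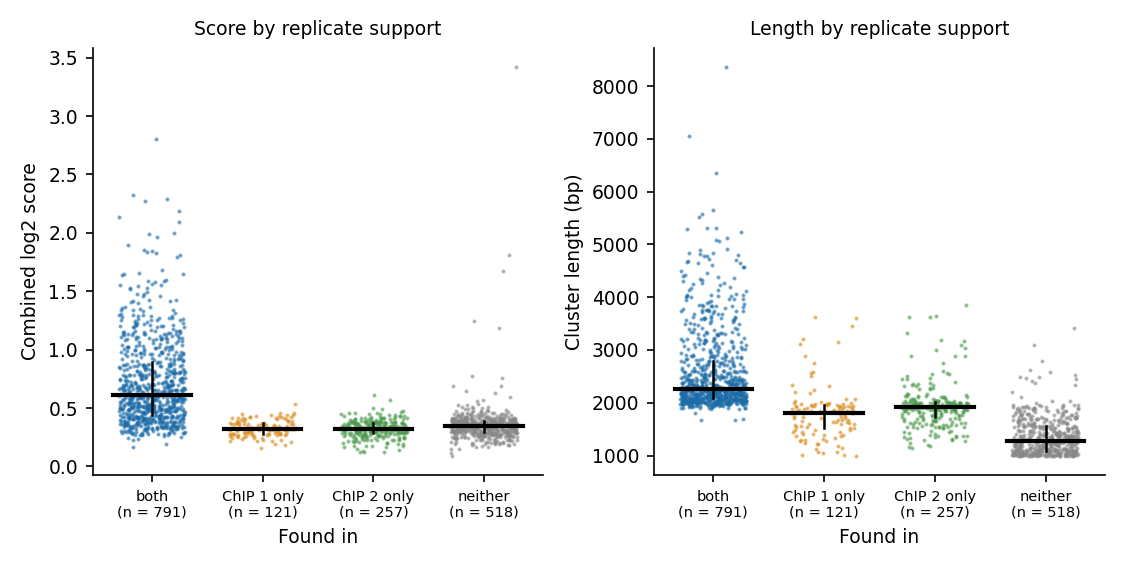
Combined log2 score (left) and length in bp (right) of each of the 1687 members, by the ChIP lists they overlap. Each dot is 1 cluster, thick bars are medians and thin vertical lines span the quartiles. Clusters found in both lists reach far higher scores, except for 5 clusters found in neither that score above 1.

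Length bands showed the same division. Of the 791 clusters found in both lists, 467 (59.0%) were over 1.9 and up to 2.4 kb long and 8 were shorter. Among the 518 clusters found in neither, 32 were longer than 1.9 kb. In the shortest quartile by length, 0 of 422 members were found in both lists (exact 95% interval 0 to 0.870%), while in the third quartile 359 of 424 were (84.7%, 80.9 to 88.0%). The shortest cluster of either ChIP list was 1301 bp, whereas the combined list went down to 1001 bp, and 304 members were shorter than 1301 bp. Of the 1383 members at or above that length, 57.2% were found in both lists and 17.2% in neither.

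By score, the share found in both ChIP lists was 10.4% in the lowest quartile, 21.1% in the second and 59.0% in the third. In the highest quartile, at combined log2 scores of 0.60 or more, it was 96.9% (409 of 422, exact 95% interval 94.8 to 98.3%). The share found in neither did not fall steadily, at 45.5%, 47.7%, 26.8% and 2.84% from the lowest to the highest quartile.

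**Figure D3:**
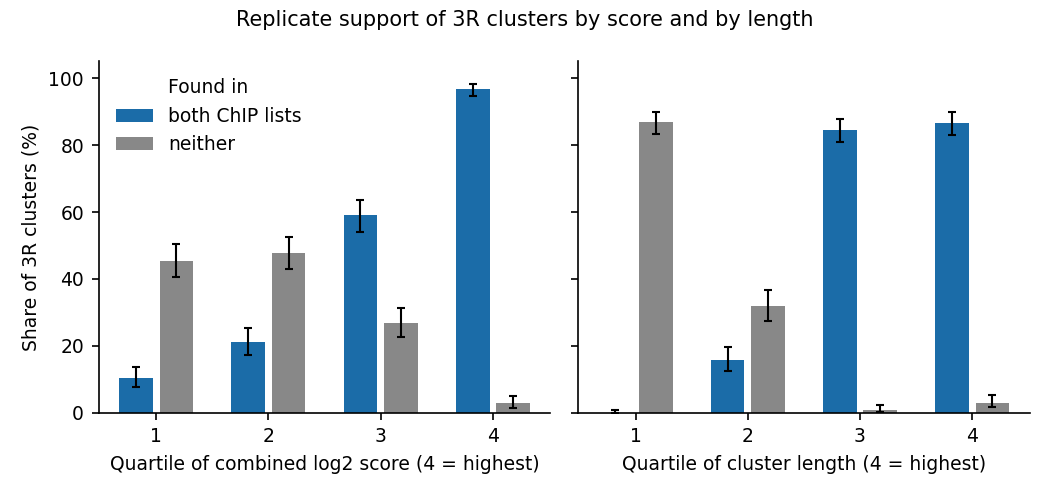
Share of 3R clusters found in both ChIP lists (blue) and in neither (grey), by quartile of combined log2 score (left) and of cluster length (right). Bars start at 0 and error lines are exact 95% intervals over clusters. In the highest score quartile 96.9% were found in both lists, while in the shortest length quartile 87.0% were found in neither.

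Score and length went together among the clusters found in both lists (Spearman 0.588, n = 791) and in opposite directions among those found in neither (Spearman -0.564, n = 518). The Pearson correlations were weaker, at 0.294 and -0.233. Over all 1687 members the Spearman correlation was 0.613. All of these are descriptions across clusters, which are not independent of each other. Among the clusters found in neither, all 5 scoring above 1 were shorter than 1301 bp, as were 280 of the 518. The highest score of the whole arm, and of the whole combined list, belonged to a cluster found in neither ChIP list. It lay at 3675528 to 3676541, was 1014 bp long and had a log2 score of 3.42.

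The other high scores without replicate support were of the same kind. They were 1.81 at 23168456 to 23169534, 1.68 at 4396216 to 4397224, 1.25 at 4697477 to 4698480 and 1.18 at 20756698 to 20757698. All 5 were between 1001 and 1079 bp long, and they were the only ones of the 518 with a score above 1. Of the members scoring above 1 there were 160, and the other 155 were found in both ChIP lists. Exact ties in score were also more frequent without support. Among the clusters found in neither, 219 of 518 (42.3%) shared their score with another combined cluster, against 61 of 791 (7.71%) of those found in both. With replicate 1 alone it was 29.8%, and with replicate 2 alone 26.5%. Written as ratios of whole numbers in the way described below, the 5 unsupported scores above 1 had denominators of 1, 5, 7, 8 and 1. Their numerators were 66, 108, 138, 117 and 14. The median denominator was 121 for the clusters found in neither and 263 for those found in both. For replicate 1 alone it was 190, and for replicate 2 alone 177. What these whole numbers count is not stated, and ratios in lowest terms do not give the counts behind them. The 5 scores may rest on small numbers, which was not tested.

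Clusters held by 1 replicate alone did not reach the scores of the strongest shared ones. The highest combined log2 scores with replicate 1 alone were 0.54 at 26305200 to 26307185, 0.46 at 3798035 to 3800370 and 0.46 at 24635860 to 24637811. In the list of replicate 1 itself these places had 0.88, 0.94 and 0.67. With replicate 2 alone the highest were 0.61 at 3915932 to 3917299, 0.57 at 14185515 to 14187689 and 0.50 at 14123014 to 14125764, with 0.79, 0.89 and 0.65 in the list of replicate 2. In each of the 6 the combined score was below the score of the replicate that held the cluster, with the scaling between lists unknown.

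The ChIP lists were also compared directly over the same stretch of the arm. By the same midpoint rule, ChIP replicate 1 had 952 clusters and replicate 2 had 1067, or 37.7 and 42.3 per Mb, against 66.9 per Mb in the combined list. They covered 8.05% and 9.28% of the stretch, and the combined list covered 13.8%. An overlap with replicate 2 was found for 801 clusters of replicate 1 (84.1%, exact 95% interval 81.7 to 86.4%), beside 84.7% for the whole list. In the other direction it was 799 (74.9%, 72.2 to 77.5%), beside 76.5%. The combined list left out 29 clusters of replicate 1 and 8 of replicate 2 on this stretch, where it overlapped 97.0% and 99.3% of them, beside 97.8% and 99.0% in the whole lists.

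Where both replicates had a cluster, they placed it in nearly the same position. In 783 one-to-one pairs the midpoints were a median of 56 bp apart, and for 531 pairs (67.8%) they were within 100 bp. In 32 pairs the midpoints were over 500 bp apart, and the widest offset was 1928 bp. These distances are small beside the median lengths of the paired clusters, which were 2089 bp in replicate 1 and 2142 bp in replicate 2.

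The order of the scores was shared as well over all pairs. Over the 783 pairs the Spearman correlation was 0.833 and the Pearson correlation 0.918, across clusters. Split by mean score, the Spearman correlation was 0.818 over the stronger pairs and 0.235 over the weaker. The split was made on these same scores and narrows their range, so the lower value does not by itself show poorer agreement. The difference between replicates had a similar spread among strong and weak pairs, with an SD of 0.16 over the 392 pairs with the higher mean scores and 0.15 over the 391 with the lower. Replicate 2 scored higher in 571 pairs (72.9%), and the mean excess was 0.09 ± 0.16 (SD, 783 pairs). This excess was 0.13 for the stronger and 0.06 for the weaker pairs.

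**Figure D4:**
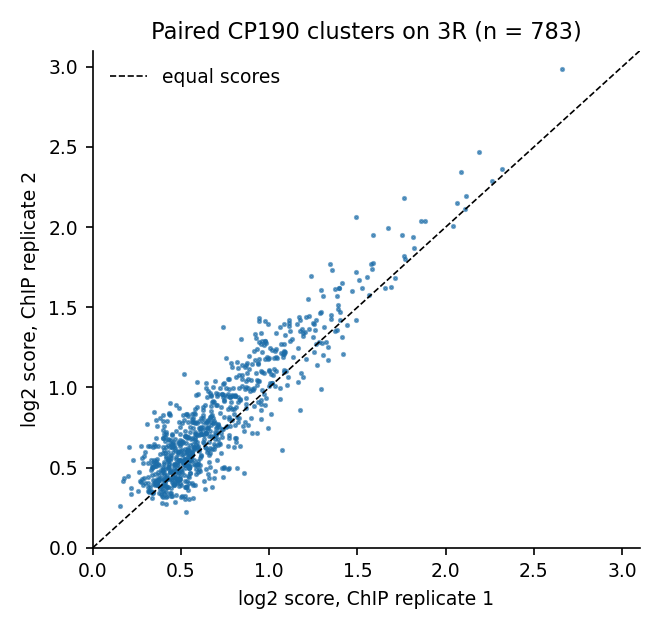
Log2 scores of the 783 one-to-one cluster pairs on 3R, with ChIP replicate 1 on the horizontal and ChIP replicate 2 on the vertical axis, 1 dot per pair. The dashed line marks equal scores, and 571 dots lie above it.

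A few places differed more than the rest, with the offset between the lists not removed. The largest excess in replicate 2 was at a cluster that replicate 1 placed at 16380720 to 16384542 with a log2 score of 0.74 and replicate 2, more narrowly, at 16382324 to 16384605 with 1.38. At 10215987 to 10219590 (replicate 1) and 10215970 to 10218294 (replicate 2) the scores were 1.49 and 2.06. At 26357178 to 26359192 in replicate 1 the score was 0.52, against 1.09 in replicate 2 for an almost identical outline. In the first and second of these places the cluster of replicate 1 was longer than that of replicate 2, which was not so in the third.

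The largest excess in replicate 1 was found at 20751478 to 20753696, where replicate 1 had a log2 score of 1.07 and replicate 2 had 0.61. Next came 11579273 to 11581522, with 0.86 against 0.47, and 6711556 to 6713871, with 0.82 against 0.50. In all 6 places the combined list had 1 cluster, with a score between those of the replicates.

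In 773 members that overlapped exactly 1 cluster of each replicate, the combined log2 score lay between the replicate scores in 499, below both in 269 and above both in 5. It followed replicate 2 (Spearman 0.959) more closely than replicate 1 (0.917), as a description over lists that share samples. The combined score was thus rarely above both replicate scores, and the mean difference from the replicates' average was -0.04.

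The longest clusters of the arm, named here and below, all had combined log2 scores above the median of 0.39 over all members. Their ranks by score ran from 122 to 541 among the 1687 members. The longest lay at 10107622 to 10115978 and measured 8357 bp, with a combined log2 score of 1.10. The replicates resolved it into 3 clusters (replicate 1, highest score 1.45) and 2 clusters (replicate 2, highest score 1.38). The second at 4877593 to 4884651 (7059 bp, 0.90) held 2 clusters of each replicate, with highest scores of 0.98 and 1.29. Both were thus composed of several separate clusters of the replicate lists.

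The third, at 15323717 to 15330076 (6360 bp, 0.50), overlapped 1 cluster of each replicate, but replicate 1 covered 55.4% of it and replicate 2 98.6%. The cluster at 22465233 to 22470877 (5645 bp, 0.59) again held 2 of each. That at 14987047 to 14992613 (5567 bp, 0.67) was 1 cluster in each replicate, covered to 99.4% and 96.3%, and is therefore the longest for which both replicates drew a single region of almost the full length. In all, 112 members were at least 3.5 kb long, with a median score of 0.81, and 106 of them were found in both lists. Only 19 members held 2 or more clusters of a replicate list.

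Along the arm, clusters were found in every 500 kb window and in both replicates at similar relative densities. Over the 47 windows that lay wholly inside the rule, the combined list had 16 to 51 clusters (median 33), ChIP replicate 1 had 6 to 31 (median 18) and replicate 2 had 11 to 35 (median 21). Counts of the replicates rose and fell together (Spearman 0.816 over 47 windows, as a description of neighbouring stretches of the same lists). The share of clusters found in both lists ranged from 25.0 to 71.9%, and the median score only from 0.35 to 0.51. Windows thus differed widely in how many clusters they held and in their highest score, which ran from 0.93 to 3.42.

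**Figure D5:**
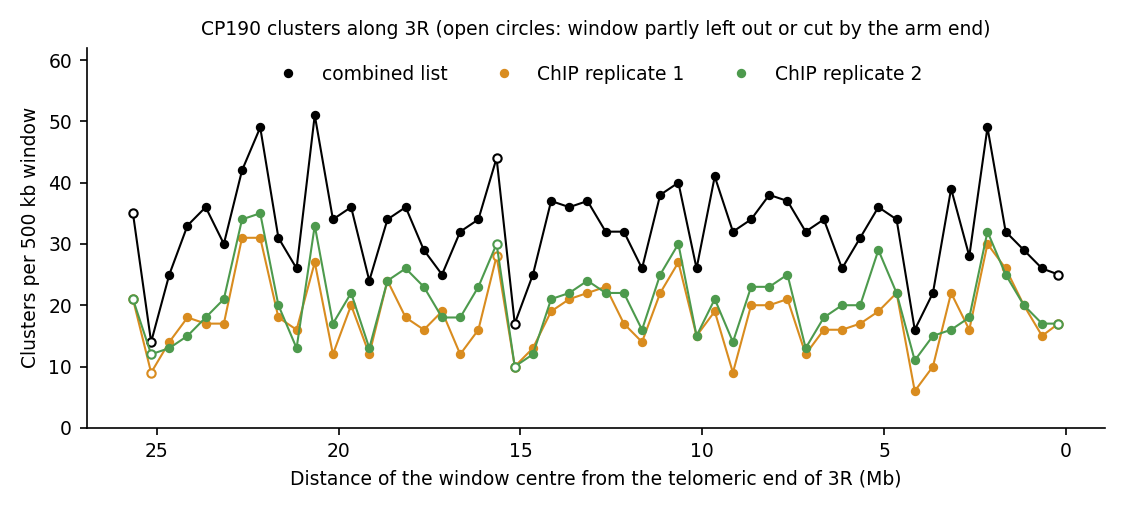
Number of clusters per 500 kb window of 3R against the distance of the window centre from the telomeric end in Mb, with the centromeric side on the left. The combined list is black, ChIP replicate 1 orange and ChIP replicate 2 green, and open circles are windows partly left out by the rule or cut by the arm end. Whole windows hold 16 to 51 combined clusters, and among whole windows the lowest count of each list lies about 4 Mb from the telomere.

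The most crowded window, 7000001 to 7500000, held 51 combined clusters, 27 of replicate 1 and 33 of replicate 2. The windows 5500001 to 6000000 and 25500001 to 26000000 held 49 each, with 31 and 35, and with 30 and 32, in the replicates. The window 12000001 to 12500000, shortened slightly by the bithorax complex, held 44, with 28 and 30. Each of these 4 windows also contained 1 or more of the 12 strongest clusters, with highest scores of 1.85, 2.00, 2.27 and 2.81. The rest of the 12 lay in other windows. The median scores of the 4 windows were 0.37, 0.36, 0.42 and 0.43, beside 0.39 over all members.

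At the other end, 23500001 to 24000000 had 16 combined clusters, 6 of replicate 1 and 11 of replicate 2, and 4 of the 16 were found in both lists. The window after it, 24000001 to 24500000, had 22, 10 and 15. Sparse stretches could still hold strong binding, as this second window contains the cluster at 24459338 with a log2 score of 2.29. The windows 2500001 to 3000000 and 12500001 to 13000000 had 14 and 17 clusters, but only 170 and 185 kb of them were kept by the rule, which makes them 82.4 and 91.9 clusters per Mb.

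By section the density was 68.9 combined clusters per Mb in the proximal, 68.7 in the middle and 63.2 in the distal one. In ChIP replicate 1 it was 39.3, 38.1 and 35.9, and in replicate 2 it was 44.1, 42.7 and 40.3. The distal section thus had the lowest density in each list, at 0.917 times that of the proximal section in the combined list, 0.912 in replicate 1 and 0.915 in replicate 2. These lists share their samples, and the difference was not tested. The share found in both ChIP lists was nearly level at 46.8%, 47.2% and 46.7%, and so was the share scoring above 1, at 9.98%, 9.12% and 9.34%. The last 1 Mb before the telomere had 55 combined clusters, 37 of replicate 1 and 38 of replicate 2. The left-out 2 Mb next to the centromere had 64.5 combined clusters per Mb.

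At finer scale, 249 windows of 100 kb held a median of 7 combined clusters (quartiles 4 and 8). There were 39 windows with 10 or more, and 3 with none, at 6800001 to 6900000, 18000001 to 18100000 and 24000001 to 24100000. The second and the third were empty in both ChIP lists too, and the first held 1 cluster of replicate 1. In all, 8 windows held no cluster of either ChIP list.

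The most crowded 100 kb lay at 12000001 to 12100000 and held 19 combined clusters, 14 of ChIP replicate 1 and 15 of replicate 2. The full lengths of these combined clusters came to 46.2% of it, with the last of them running past its end to 12101325. Neighbours were 2232 to 11575 bp apart (median 4542 bp). Within it 12 clusters were found in both lists, 2 in replicate 1 alone, 2 in replicate 2 alone and 3 in neither. It held 2 of the 12 strongest clusters, those at 12030059 and at 12085136, with 1.96 and 2.81 as combined scores. The next highest scores were 1.09 at 12005243 to 12007524 and 0.97 at 12049321 to 12051548, and the median of all 19 was 0.43. In all, 7 of the 19 had scores in the upper quartile of the arm, a quartile set over all 1687 members.

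Next in number came 4100001 to 4200000 with 15 combined clusters (8 and 9 in the replicates) and 5900001 to 6000000, also with 15 (13 and 14). The replicate counts came close to the combined count in the second of these windows and well below it in the first.

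The median distance between midpoints of neighbouring members was 9353 bp, with quartiles of 4915 and 18487 bp, over 1684 distances. Clusters found in both ChIP lists were a median of 19810 bp from the next of their kind. In the lists of replicate 1 and 2 the medians were 16415 and 13972 bp. Neighbours within 5 kb made up 25.7% of the distances in the combined list, 13.2% in replicate 1 and 16.0% in replicate 2, and shorter lists have wider distances by construction.

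Linking neighbours within 5 kb gave 223 pairs, 61 groups of 3 and 24 groups of 4 or more, and left 947 members on their own. The largest groups had 7 members each. One ran from 4125691 to 4146614, with combined log2 scores from 0.33 to 1.01 and 4 of the 7 found in both ChIP lists. The other ran from 5901527 to 5920462, with scores from 0.12 to 0.88 and 5 of 7 found in both. Neither contained one of the 12 strongest clusters, and their median scores were 0.57 and 0.42, beside 0.39 over all members.

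The widest distance between neighbours was 153313 bp, from the cluster at 6789360 to 6791449 (log2 score 0.54) to that at 6942677 to 6944758 (0.48). Both of these flanking clusters were found in both ChIP lists, with replicate scores of 0.49 and 0.63 on the left and 0.36 and 0.63 on the right, and replicate 1 had 1 cluster in between. The next, 145394 bp, ran from 23971698 to 23973272 (0.33) to 24117213 to 24118545 (0.49), and the third, 134593 bp, from 23607550 to 23608577 (0.43) to 23741697 to 23743615 (0.33). These 2 lie close together, inside the sparse windows from 23500001 to 24500000.

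The fourth widest distance was 112175 bp, between 17998129 to 17999405 (0.42) and 18110238 to 18111647 (0.21). The fifth was 109665 bp, between 3171216 to 3173608 (1.65) and 3281414 to 3282741 (0.33). The left cluster of the fifth was strong in both replicates, with 1.58 and 1.77. It was the single one of the 10 flanking clusters with a score above 1.

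The scores of neighbouring clusters were nearly uncorrelated. Over 1684 neighbouring pairs the Spearman correlation of combined scores was 0.0129, and it was 0.0166 for the 432 pairs within 5 kb, as a description with no test. After a cluster found in both ChIP lists the next one was found in both in 47.7% of 790 cases, and after any other cluster in 46.1% of 894. Members with a neighbour within 5 kb had a median score of 0.38 (n = 740), those with the nearest at 5 to 20 kb had 0.40 (n = 839), and the 108 members with none within 20 kb had 0.40. Found in both ChIP lists were 44.3% (exact 95% interval 40.7 to 48.0%), 49.6% (46.1 to 53.0%) and 43.5% (34.0 to 53.4%) of these.

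Arms 2L and 3L, cut by the same 2 Mb from their centromeric ends, served for comparison. They had 60.3 and 63.5 combined clusters per Mb against 66.9 on 3R, and clusters covered 12.4% and 13.1% of them against 13.8%. Median log2 scores were 0.40 on 2L, 0.40 on 3L and 0.39 on 3R, and median lengths were 1998, 2010 and 1995 bp. On 2L 48.0% (exact 95% interval 45.2 to 50.8%) and on 3L 48.9% (46.3 to 51.5%) of clusters were found in both ChIP lists, intervals that overlap with that of 3R. Median distances between neighbours were 9866 and 9746 bp. Differences between arms were not tested, as each list has 1 value per arm and clusters are not replicates.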

How the data were processed

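CP190 ChIP and input chromatin of whole embryos were sequenced by the authors. The submitters' processing notes name Bowtie 0.12.7 as the aligner, and coordinates are on FlyBase release 5, per the file headers. The authors deposited 3 lists of enriched regions, with 1 value per region and no unit named. The peak caller, its thresholds, and how the replicates were combined are not stated in those sources. The deposited values were read as log2 scores, since 2 raised to the value, relative to the most frequent value of the list, came out as 1 whole number over another of at most 2000 (relative tolerance 1e-11) for 87.0% of the combined list and for 99.8% of each ChIP list. With base e or base 10 it was so for at most 0.531%.

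Overlap, one-to-one pairing, distances and windows were computed with Python 3.11.15, NumPy 2.4.6, SciPy 1.17.1 and pandas 2.3.3, drawn with matplotlib 3.10.9, and checked on planted lists. Where a combined cluster overlapped several clusters of a ChIP list, the highest score was used. The named regions are the 12 strongest members found in both ChIP lists, the 5 longest, the 5 strongest found in neither, the 3 strongest of each single replicate, the 4 most and 4 least crowded windows of 500 kb, the 5 widest distances, and the 3 pairs with the largest score excess in each replicate. The crowded and empty windows of 100 kb, the largest groups and the length bounds of 1.9 and 2.4 kb were chosen after their values were seen. Members and lists were chosen with earlier results of these data known. The gene table at hand is on release 6 and was not used. Alternatives varied the overlap, the score and length kept, the stretch, merging and the list.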

Additional observations from a re-analysis of the deposited data

How the results depend on the processing

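Over 9 results and 42 alternative values, 22 stayed within the spread used for that result and 20 moved beyond it. None turned direction, which only the density ratio, the score difference and the correlation could do. That spread was the exact interval for shares, a factor of 1.5 for the number of clusters, the SD between the ChIP lists for medians and the density ratio, and an approximate 95% interval for the correlation. The SD rests on 2 values and was only 0.0017 for the density ratio, so small shifts there count as moved. The values from a single replicate's list are the same ones that set this SD. With only combined clusters above the median score there were 753 clusters, 84.2% found in both ChIP lists and 10.5% in neither, a distal to proximal density ratio of 0.975 and a median distance of 23235 bp. With clusters of at least 1301 bp, 57.2% were found in both and 17.2% in neither, and the median length was 2074 bp. Merging clusters less than 200 bp apart gave a density ratio of 0.927, and clusters found in both lists a median distance of 19810 bp. Leaving out a replicate means using the other replicate's list alone. It gave 952 to 1067 clusters, density ratios of 0.912 to 0.915, median distances of 13972 to 16415 bp, median lengths of 2041 to 2072 bp and median scores of 0.57 to 0.59. A list with fewer clusters has wider distances by its making, and for the other moves the cause was not tested. With 50% of a cluster covered, or with the whole arm kept, no result moved.

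No paired analysis was possible because each ChIP replicate is a single list and the input samples have no list of their own. Settings for motifs, promoters and genes were not run for want of a reference on release 5. As the depth of the libraries is unknown, its bearing on weak clusters was not measured.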
